A study of Mus musculus with 34 samples.

Results

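The nuclear genes of the mitochondrial respiratory chain were followed through adipogenesis of brown preadipocytes and through 3 perturbations of it. Members were taken by symbol: those beginning with Nduf, Sdha to Sdhd, Uqcr, Cox4 to Cox8, or Atp5, plus Cyc1 and Cycs, without Cox7a1, Cox8b, and pseudogenes. This gave 93 of 23109 genes, of which 36 encode subunits of complex I, 8 are assembly factors of complex I (Ndufaf genes), 4 belong to complex II, 9 to complex III, 18 to complex IV, and 17 to complex V, and 1 is cytochrome c. Ndufa4 and Ndufa4l2 were counted with complex IV, where the Ndufa4 protein is now placed. The rule goes by symbols and uses no measured value.

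All libraries came from preadipocytes of the interscapular brown fat of newborn pups on a C57BL/6J background, immortalized with SV40T. The sample labels call them GR-flox/flox cells that received an empty or a Cre retrovirus without saying which library had which, whereas the methods call them WT. In the adipogenesis experiment, cells carrying retroviral FLAG-tagged WT or K36M histone H3.3, in which methionine replaces lysine 36, were sampled at confluence (D0) and at D2 and D7 after induction. Insulin, T3, IBMX, dexamethasone, and indomethacin were given until D2, and insulin with T3 afterwards. In the ligand experiment, WT or K36M cells with ectopic PPARγ, kept sub-confluent, received DMSO (labelled time 0) or the PPARγ ligand rosiglitazone (Rosi, 24 h). In the knockdown experiment, lentiviral control shRNA (Ctrl) or shRNA against the H3K36 methyltransferase Nsd2 (KD) was compared at D0 and D2. The labels do not name the shRNA used. No source describes the infected cells as clones. Each of the 14 conditions had 1 library, so no difference has a replicate check, no test across conditions was possible, and no p-value is given.

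The respiratory chain passes electrons from NADH (complex I) and succinate (complex II) through ubiquinol to complex III, through cytochrome c to complex IV, and finally to oxygen. Complexes I, III, and IV pump protons across the inner mitochondrial membrane, and complex V, the ATP synthase, uses their return to make ATP. The genes followed here are in the nucleus, and their products are assembled with subunits made inside mitochondria. Brown adipocytes are rich in mitochondria and can let protons return through Ucp1 and thereby make heat.

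The libraries held 12213559 to 24365867 mapped reads (median 18383782). Values are RPKM, the reads of a RefSeq transcript scaled to kilobases of its length and to the depth of the library, with the transcript of the highest mean taken for each gene. The 3 reads taken as the smallest signal correspond, for a transcript of 1 kb, to between 0.123 and 0.246 RPKM, depending on the library. Ratios are given as log2 of the first library over the second, each with a 95% Clopper-Pearson interval from the recovered read numbers that covers counting error only. Intervals were not computed for all genes, so counts of members by interval have no background share. A gene was counted when over 2-fold higher or lower. Genes with a mean RPKM of at least 1 over the 14 libraries were compared, which were 11899 of all genes and 89 members (95.7%). The 4 members below it were Cox4i2, Cox7b2, Cox8c, and Ndufa4l2, and Cox8c was listed at 0 in every library. Nsd2 itself was at 5.85 and 7.01 RPKM in KD cells against 19.9 and 29.0 in Ctrl cells at D0 and D2.

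The cells matched their label in part. Summed over 6 adipocyte markers, WT cells had 244, 5612, and 5240.0 RPKM at D0, D2, and D7. The brown markers were low throughout, with a sum of at most 9.11 RPKM and Ucp1 between 0 and 0.194. Cox7a1 and Cox8b, isoforms abundant in brown fat and muscle that the rule leaves out, reached at most 2.46 and 1.03 RPKM, both at WT D7. The summed markers of macrophages and of endothelial cells stayed at or below 3.11 and 2.47 RPKM.

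At WT D0 the complexes differed in level less than their members did. Atp5b, the catalytic β subunit of the ATP synthase (mm9 chromosome 10, 127520329 to 127527447), had the highest mean of all members and stood at 375 RPKM in WT D0. The median subunit of complex I was at 31.0 RPKM, of complex II at 45.9, of complex III at 32.6, of complex IV at 44.0, and of complex V at 49.1. Complex I assembly factors had a median of 5.52 RPKM, and Cycs, the somatic cytochrome c, was at only 1.42. The Cycs transcript used is 3059 bases long, and its RPKM averages over that whole length.

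Levels of some members differed widely between experiments, so the comparisons of days, K36M, Rosi, and KD were made within an experiment, and controls of separate experiments were compared only to show how far they differ. Of the 89 members, 14 (15.7%) had medians over 2-fold apart between the 6 adipogenesis libraries and the other 8, against 15.6% of all genes. Near-identical copies, aligned over at least 150 bases at 95% identity or more elsewhere in mm9, were found for 35 of the 89 members. Among these 35, 11 (31.4%) were over 2-fold apart, compared with 3 of the 54 members without a copy (5.56%). Among members with a copy, the extremes, chosen after their values were seen, were Atp5g2, at 0.217 to 2.10 RPKM in adipogenesis and 92.7 to 138 elsewhere, and Ndufs5, at 27.5 to 96.0 and 4.28 to 13.5. How reads of copies were assigned is not given in the sources used here, and its part in these values was not tested. Levels of members with copies are uncertain, and medians were recomputed without them, which gave 0.90 for WT D2 over D0, -0.92 for K36M over WT at D7, and -0.52 for KD over Ctrl at D2. For Ctrl over WT cells, the controls of separate experiments, the members' median was 0.11 at D0 (all genes -0.24) and -0.39 at D2 (all genes -0.14). At D0 7 members were over 2-fold higher (6.55% of all genes) and 7 lower (14.5%), and at D2 5 were higher (4.88%) and 10 lower (6.38%). The SD of the D0 log2 ratio over the members divided by the square root of 2 was 0.92, or 0.51 over the 54 members without a copy.

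**Figure D1:**
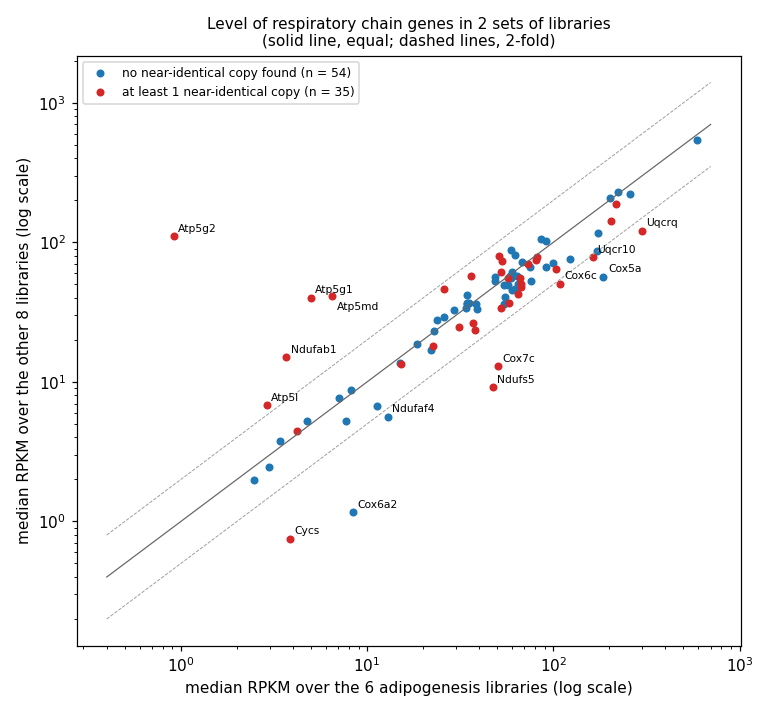
Each point is 1 of the 89 members, with its median RPKM over the 6 adipogenesis libraries on the x axis and over the other 8 libraries on the y axis (both log scales). Red points have a near-identical copy in the genome and blue points do not. Most points lie within the dashed 2-fold lines, and Atp5g2, Atp5g1, Atp5md, Ndufab1, and Atp5l lie above them.

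In WT cells nearly the whole chain was higher after the first 2 days of adipogenesis. The median member was 2.03-fold higher at D2 than at D0 (log2 1.02, quartiles 0.72 to 1.32), while the median of all genes was at -0.01. Of the 89 members, 47 (52.8%) were over 2-fold higher, where 8.92% of all genes were, and 1 was over 2-fold lower (Cox6a2), where 16.4% of all genes were. Counting intervals lay above 0 for 83 members. Over 2-fold higher were 23 of the 54 members without a copy (42.6%), and 27 of the 89 when the libraries were rescaled to other genes with transcripts under 1000 bases. Complex III had the highest median of the 5 complexes (1.44), followed by V (1.18), IV (1.10), I (0.97), and II (0.92). The complex I assembly factors, which help build the complex but are not part of it, had a lower median of 0.60. In complex III, Uqcr10, Uqcr11, Uqcrb, Uqcrh, and Uqcrq have near-identical copies and were at 1.53, 1.85, 1.44, 1.57, and 1.48. Cyc1, Uqcrc1, Uqcrc2, and Uqcrfs1, without copies, were at 1.08, 0.76, 0.97, and 1.11. The order of the complexes was not computed without the members that have copies.

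Between D2 and D7 the WT median hardly moved. The members' median log2 ratio was 0.02 and that of all genes 0.03. Only Cox6a2 and Cox7c were over 2-fold higher, where 14.4% of all genes were, and 0 were over 2-fold lower, where 4.83% were. From D0 to D7 the median was 1.11 (all genes -0.02), with 53 members over 2-fold higher against 9.92% of all genes and 0 over 2-fold lower against 8.4%. Over these 7 days complexes II (1.25), III (1.47), and V (1.30) had the highest complex medians, and the assembly factors the lowest median (0.30). The comparisons with D2 and D7 share the D0 library.

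Complex I has 7 core nuclear subunits, which form its peripheral arm, and 29 accessory ones here. The core subunits had the smaller change at D2, with a median of 0.78 against 1.01 for accessory subunits, and the larger at D7, with 1.35 against 0.96. Genes that are not members also differed by transcript length over these days. Under 600 bases their medians were 0.233 for WT D2 over D0 and -0.346 for WT D7 over D2. At lengths of at least 1000 and below 2000 bases they were 0.0658 and 0.0526. The part of transcript length in the difference between core and accessory subunits was not tested. Ndufs1, the largest iron-sulfur core subunit, was at 18.0, 27.1, and 46.0 RPKM at D0, D2, and D7, so most of its increase came after D2. Ndufv1, which binds NADH and FMN, was at 39.9, 89.7, and 114 RPKM. Ndufv2, another subunit of the NADH-oxidizing module, reached its level by D2, with 21.7, 44.5, and 42.2 RPKM. Among the iron-sulfur core subunits Ndufs7 and Ndufs8, the log2 ratio of D7 to D0 was 1.44 (interval 1.28 to 1.602) and 0.95 (0.77 to 1.13), whereas at D2 Ndufs8 was at 0.08 (-0.11 to 0.27), among the 3 lowest of the members with a mean RPKM of at least 5. Ndufs3, a core subunit of the peripheral arm, had 1.38 at D7. Accessory subunit Ndufb3 was among the 3 highest members at D7, at 1.94 (1.64 to 2.24). The assembly factor Ndufaf2 went up and back, with 23.0, 41.1, and 21.0 RPKM, and Ndufaf4 was nearly level between D0 and D7, at -0.01 (-0.16 to 0.14).

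Complex II is also an enzyme of the citric acid cycle, and all 4 of its genes were higher at D2 than at D0. Sdha, its flavoprotein (chromosome 13, 74459702 to 74487728), was at 55.3, 93.4, and 173 RPKM in WT cells at D0, D2, and D7. Sdhb, the iron-sulfur subunit, was at 50.3, 82.2, and 111. The membrane anchors Sdhc and Sdhd had D7 over D0 log2 ratios of 1.30 (1.17 to 1.42) and 1.21 (1.10 to 1.32). From D2 to D7 the log2 ratios were 0.89 for Sdha, 0.44 for Sdhb, 0.22 for Sdhc, and 0.07 for Sdhd, whose counting interval (-0.03 to 0.16) includes 0.

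In complex III, Cyc1, the cytochrome c1 subunit (chromosome 15, 76173953 to 76176364), was at 65.2, 137, and 184 RPKM in WT cells. Uqcrfs1, the Rieske iron-sulfur protein, was at 26.8, 58.0, and 88.0, so both redox subunits were higher at D7 than at D2. The core proteins Uqcrc1 and Uqcrc2 had log2 ratios of 1.33 and 1.42 at D7 over D0. Uqcr11, a small subunit of the complex, was among the 3 highest members at both days, with 31.4, 113, and 124 RPKM. Cycs, which carries electrons from complex III to IV (chromosome 6, 50512562 to 50516537), went from 1.42 to 8.57 and 5.69 RPKM, a D2 log2 ratio of 2.59 (2.27 to 2.93). Its reads numbered 93 at D0 and 501 at D2.

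In complex IV, the subunits Cox4i1 and Cox5b were higher at each later day, with 171, 359, and 549 RPKM and 30.1, 74.6, and 99.9 RPKM in WT cells at D0, D2, and D7. Cox5a was at 130.2, 203, and 275. Cox7c, a small subunit with 5 near-identical copies, was the highest of the members with a mean RPKM of at least 5 at D7, at 2.16 (1.95 to 2.37). In complex V, Atp5b was at 375, 765, and 1135 RPKM, and Atp5a1, the α subunit, at 149.8, 304, and 368. For the γ subunit Atp5c1 the values were 59.7, 107, and 131. From D2 to D7 the log2 ratio was 0.57 for Atp5b, 0.27 for Atp5a1, and 0.28 for Atp5c1. Atp5k, subunit e of the membrane part, was among the 3 highest at D2, at 1.86 (1.63 to 2.10). Atp5l and Atp5md, also of the membrane part, were among the 3 lowest from D2 to D7, at -0.67 and -0.75, and both have near-identical copies.

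**Figure D2:**
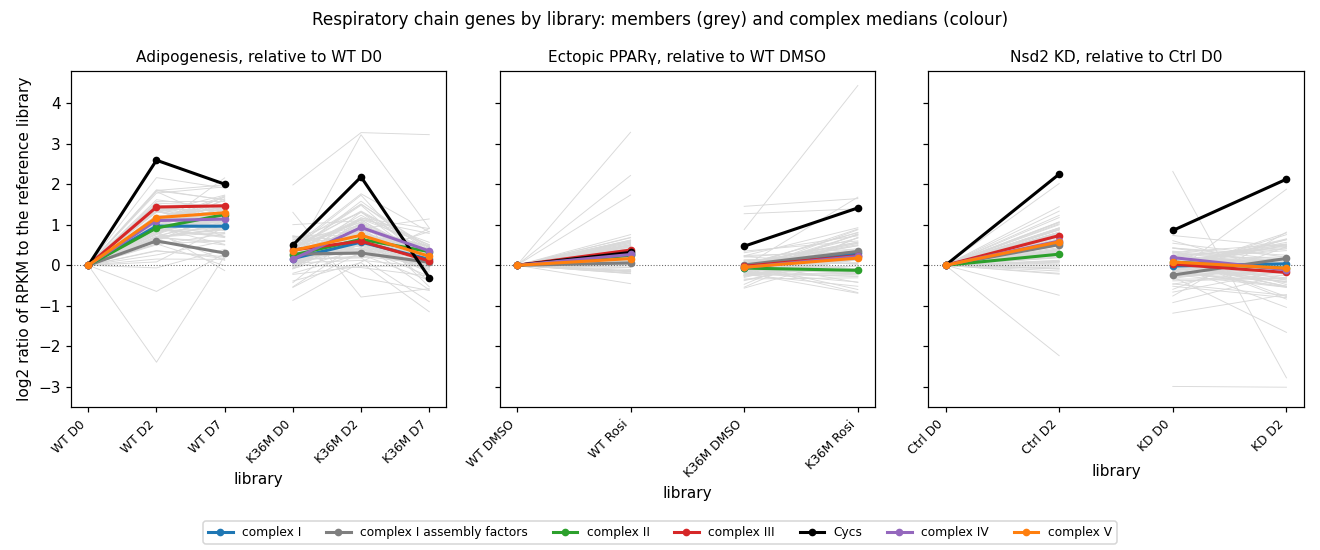
The y axis gives the log2 ratio of RPKM to the reference library named above each panel, and the x axis the libraries of that experiment. Grey lines are single members and colored lines the medians of each complex (black is Cycs alone). All colored lines rise from WT D0 to D2, stay up at WT D7, and return toward 0 at K36M D7.

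Short words bound by known activators of respiratory genes were sought in the promoters, since most members were higher together at WT D2. RefSeq windows of 250 bases before to 50 after the start (GRCm38.p6) were found for 75 of the 93 members, and 4 words were sought on both strands. The NRF1 word GCATGCGC was in 13 of 75 members (17.3%), against 3.05% of all genes with a window and 6.31% of those with a mean RPKM of at least 1. For the ETS word CCGGAAG the shares were 25.3%, 9.93%, and 21.2%. For the YY1 word AAGATGGCG they were 10.7%, 1.64%, and 3.89%, and for the estrogen-related receptor (ERR) word TCAAGGTCA 2.67%, 0.466%, and 0.285%. The NRF1 word overlaps its own reverse complement, so 1 stretch can match on both strands, and each gene was counted once per word. In all, 34 members held at least 1 word. Promoters of 6 members, chosen with their values known, are shown as the 120 bases before the start, on the strand of the gene, with the word in capitals. Cycs, Ndufa6, Sdhb, and Atp5k show the NRF1 word, Uqcr11 the ETS word, and Atp5g3 the ERR word on the opposite strand. A match is a description and not a binding site.
Cycs (chr6:50566570-50566689, minus strand): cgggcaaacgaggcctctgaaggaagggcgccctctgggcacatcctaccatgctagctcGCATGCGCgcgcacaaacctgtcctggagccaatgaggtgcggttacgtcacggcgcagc
Ndufa6 (chr15:82354292-82354411, minus strand): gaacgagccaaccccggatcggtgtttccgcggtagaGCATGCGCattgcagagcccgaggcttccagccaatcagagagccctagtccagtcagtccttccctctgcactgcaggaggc
Sdhb (chr4:140961151-140961270, plus strand): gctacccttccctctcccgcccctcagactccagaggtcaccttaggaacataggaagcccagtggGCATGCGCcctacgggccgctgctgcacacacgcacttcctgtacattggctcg
Uqcr11 (chr10:80406822-80406941, minus strand): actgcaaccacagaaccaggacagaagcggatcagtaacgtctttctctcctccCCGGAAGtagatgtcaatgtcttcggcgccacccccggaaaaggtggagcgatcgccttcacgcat
Atp5k (chr5:108434400-108434519, minus strand): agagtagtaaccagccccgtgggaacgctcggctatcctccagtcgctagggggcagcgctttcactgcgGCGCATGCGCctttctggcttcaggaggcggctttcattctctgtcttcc
Atp5g3 (chr2:73911327-73911446, minus strand): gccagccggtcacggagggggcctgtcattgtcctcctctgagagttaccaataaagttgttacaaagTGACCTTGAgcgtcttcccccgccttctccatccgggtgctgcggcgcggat

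Among the 13 members with the NRF1 word, the median log2 ratio was 0.89 for WT D2 over D0, -1.03 for K36M over WT at D7, and -0.29 for KD over Ctrl at D2. The 61 other members with a window had 1.02, -0.96, and -0.55 in the same comparisons. With the ETS word the medians were 1.02, -0.91, and -0.58 (n = 19), and without it 1.01, -0.96, and -0.55 (n = 55). The ERR word was in only 2 members, one of them Atp5g3, which encodes a c subunit of the ATP synthase rotor.

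In K36M cells the chain started slightly above WT, was higher at D2, and was back at its own starting level by D7. At D0 the members' median log2 ratio of K36M to WT was 0.27, and that of all genes 0.09. Atp5g1, Atp5g2, and Cox6a2 were over 2-fold higher, 3 of 89 where 3.69% of all genes were, and 0 were over 2-fold lower, where 5.85% were. From D0 to D2 the K36M median was 0.47 (all genes -0.07), with 14 members (15.7%) over 2-fold higher against 9.56% of all genes and 1 lower (Cox6a2) against 9.91%. From D2 to D7 it was -0.52 (all genes 0.05), with 0 over 2-fold higher against 13.5% and 15 (16.9%) lower against 6.41%. Of the 54 members without a copy, 5 (9.26%) were over 2-fold lower over this step. Counting intervals lay below 0 for 67 members over this step. Short genes that are not members were lower too over this step. Under 600 bases they had a median of -0.378, where the 37 members of that length had -0.69. At lengths of at least 1000 and below 2000 bases the medians were 0.0369 for other genes and -0.39 for members. Between D0 and D7 the K36M median was -0.04 (all genes 0.04). Atp5g2, Cox6b2, and Ndufaf3 were over 2-fold higher, where 13% of all genes were, and Atp5g1, Cox6a2, Ndufa12, Ndufaf2, Ndufaf4, and Uqcrq were over 2-fold lower, where 6.99% were.

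The D2 increase in K36M cells was unequal among complexes. Complex IV was closest to WT, with a median of 0.86 against 1.10 in WT cells, whereas complex III was at 0.15 against 1.44. Complexes I, II, and V lay between, at 0.42, 0.35, and 0.46. Cycs still reached 1.68 (1.36 to 2.01). The 3 highest members with a mean RPKM of at least 5 were Cox7c, Cox6b2, and Ndufs5, at 3.06, 1.33, and 1.33. Besides Cox6a2, the lowest were Ndufaf2 and Uqcrc1, at -0.76 and -0.21.

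Against WT cells, the K36M cells were lower by a little at D2 and by about 1 log2 unit at D7. At D2 the median log2 ratio of K36M to WT was -0.32 (all genes 0.07). Between the 2 sets of control cells at D2 it was -0.39 (all genes -0.14). Under other processing choices these medians ranged from -0.386 to -0.311 and from -0.436 to -0.164, so which was larger in size depends on the choice. Atp5g2, Cox6a2, Cox6b2, and Cox7c were over 2-fold higher, where 11% of all genes were, and Atp5k, Atp5md, and Ndufaf2 lower, where 3.82% were. At D7 the median was -0.96 (quartiles -1.17 to -0.70, all genes 0.12). Of the 89 members, 41 were over 2-fold lower, where 7.17% of all genes were, and only Atp5g2 was over 2-fold higher, where 10% were. The counting interval lay below 0 for 81 members and above 0 for 2. The change from D0 to D7 was lower in K36M than in WT cells for 86 of 89 members (96.6%), compared with 47.4% of all genes. The members' median difference was -1.15. For 60 members (67.4%) the change was lower by more than 1 log2 unit, compared with 8.80% of all genes.

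Complex III was furthest below WT at D7. Its median was -1.40, against -1.11 for complex V, -0.99 for II, -0.97 for I, -0.95 for IV, and -0.36 for the complex I assembly factors. The core and accessory subunits of complex I had medians of -0.98 and -0.96. Cyc1 was at 84.6, 98.5, and 61.0 RPKM in K36M cells at D0, D2, and D7, and its D7 ratio to WT of -1.59 (-1.70 to -1.48) was the lowest of members with a mean RPKM of at least 5. Uqcrfs1 was at -1.43 (-1.58 to -1.29), Uqcrc1 at -0.90, and Uqcrc2 at -1.46. Cycs went from 2.01 to 6.44 and back to 1.15 RPKM, which was -2.31 (-2.81 to -1.83) relative to WT at D7. Electron transfer from ubiquinol to complex IV passes through the proteins of Uqcrfs1, Cyc1, and Cycs.

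Most subunits of the other complexes were lower too. Atp5b was at 607, 576, and 397 RPKM in K36M cells, so it was below its own D0 level at D7, and its ratio to WT was -1.51 (-1.55 to -1.48). Atp5a1 was at -1.16 and Atp5c1 at -0.997. Sdha was at 62.6, 79.0, and 71.6 RPKM, the furthest below WT in complex II at -1.27 (-1.34 to -1.21), and Sdhb was at -1.08. Cox4i1 was at 207, 301, and 216 RPKM, or -1.35 (-1.43 to -1.27) against WT. For Ndufs1 the K36M values were 22.5, 23.0, and 22.6 RPKM, and for Ndufv1 they were 49.1, 59.8, and 46.3. The members highest against WT were Atp5g2, at 1.32 (-0.04 to 2.84), Cox6b2, at 0.85 (0.19 to 1.53), and the assembly factor Ndufaf8, at 0.66 (0.07 to 1.27).

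Adipocyte markers were also lower in K36M cells at D7, and members differ from other genes in transcript length. The adipocyte marker sum at D7 was 476 RPKM in K36M against 5240.0 in WT cells, with 6 of 6 markers over 2-fold lower and none at 0. The preadipocyte marker sum was 630.1 against 289.8, with 2 of 5 markers over 2-fold higher and 0 lower. Ly6a alone was at 407.6 against 169.3 RPKM. In bulk samples, fewer cells of a type and less RNA per cell cannot be told apart. The median transcript of a member has 680 bases, that of all genes 2704. Genes under 1000 bases that are not members (n = 1102) had a median of 0.03 for K36M over WT at D7, where the 59 members of that length had -0.97. From the shortest to the longest of 4 length classes, the members' medians for this ratio were -1.03, -0.96, -0.96, and -0.96. For WT D2 over D0 these medians were 0.21 and 1.14. At lengths of at least 1000 and below 2000 bases, the 22 members had a WT D2 over D0 median of 0.93 and the 2793 other genes 0.07. For K36M D2 over D0 the members' medians from the shortest to the longest class were 0.717, 0.655, 0.251, and 0.326. Other genes in those classes had 0.144, 0.103, -0.00774, and -0.0776. For K36M D7 over D2 the members had -0.69, -0.544, -0.39, and -0.468, and other genes -0.378, -0.099, 0.0369, and 0.0743. The part of transcript length and of cell identity in these values was not tested.

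**Figure D3:**
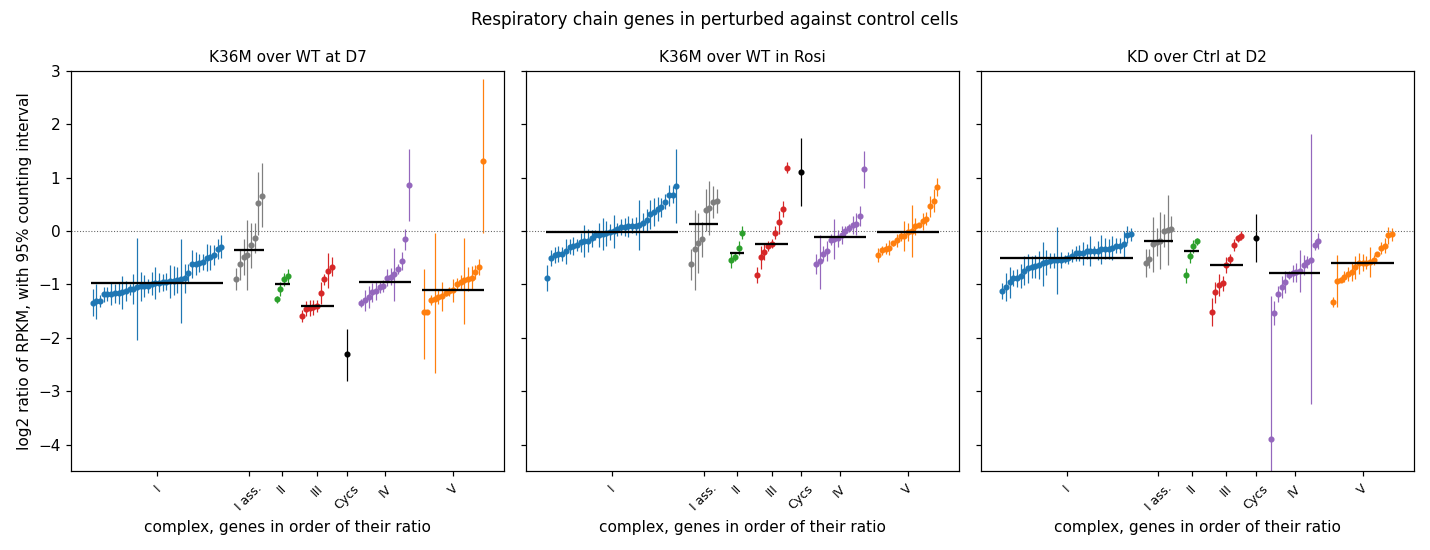
The y axis gives the log2 ratio of RPKM in perturbed over control cells, and the x axis the members by complex in order of their ratio. Points are genes with 95% counting intervals and black bars the complex medians. At K36M D7 and KD D2 most points lie below 0, with Rosi they scatter around 0, and the interval of Cox6a2 in KD over Ctrl continues below the axis.

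In cells with ectopic PPARγ, the chain was only slightly higher with Rosi than with DMSO. For Rosi over DMSO, the members had a median log2 ratio in WT cells of 0.26 (all genes 0.06), and in K36M cells 0.32 (all genes -0.03). Cox6a2, Cox6b2, and Ndufaf3 were over 2-fold higher in WT cells, where 9.77% of all genes were, and 0 members were over 2-fold lower, where 4.71% were. In K36M cells Atp5k, Cox6a2, Ndufa1, Ndufa6, Ndufb4, and Uqcrq were over 2-fold higher, where 7.43% of all genes were, and 0 were lower, where 8.14% were. In both kinds of cells the share of members over 2-fold higher (3.37% and 6.74%) was below that of all genes. The adipocyte marker sum went from 192 to 3604 RPKM in WT and from 122 to 1434 in K36M cells over the same step.

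By complex, the WT medians with Rosi ran from 0.17 in V, through 0.25 in II and 0.27 in I and IV, to 0.38 in III. In K36M cells complex I had 0.46, III 0.28, IV 0.26, V 0.20, and II -0.09. Core subunits varied in their differences. In complex I they had a median of 0.41 in WT cells (accessory subunits 0.26) and of 0.29 in K36M cells (accessory subunits 0.46). Ndufv1 was at 42.1, 64.7, 44.4, and 54.0 RPKM in WT DMSO, WT Rosi, K36M DMSO, and K36M Rosi. Atp5b was at 527 and 562 RPKM with DMSO and Rosi in WT cells and at 578 and 608 in K36M cells. Cyc1 was at 109 and 120.4 in WT and 104 and 99.6 in K36M cells. Sdha was at 68.3, 85.9, 66.6, and 61.1 in the same order.

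Between K36M and WT cells of this experiment the members' medians were close to 0. With DMSO the median log2 ratio of K36M to WT was -0.05 (all genes -0.02), where Cox6b2 and Ndufaf3 were over 2-fold higher (4.37% of all genes) and 0 lower (3.11%). With Rosi it was -0.04 (all genes -0.12), where Cox6a2, Cycs, and Uqcrq were over 2-fold higher (5.96% of all genes) and 0 lower (11.6%). Both medians changed sign under another scaling. The responses to Rosi in K36M and WT cells differed by a median of 0.04. Uqcrq, the ubiquinone-binding subunit of complex III with 1 near-identical copy, was at 100.2, 141, 98.5, and 321 RPKM in WT DMSO, WT Rosi, K36M DMSO, and K36M Rosi, so the last library stood out. The lowest with Rosi were Ndufb5, Uqcrfs1, and Ndufaf7, at -0.87 (-1.12 to -0.63), -0.82 (-0.97 to -0.68), and -0.62 (-0.91 to -0.33).

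The members were higher at D2 than at D0 in Ctrl cells but not, by their median, in KD cells. In Ctrl cells the members' median log2 ratio of D2 to D0 was 0.58 (all genes 0.07), with 11 (12.4%) over 2-fold higher against 11% of all genes and 1 lower (Cox6b2) against 15.4%. Of the 54 members without a copy, 3 (5.56%) were over 2-fold higher. These shares were near or below that of all genes. WT cells of the adipogenesis experiment had a median of 1.02 over the same days. In KD cells the median was 0 to 2 decimals (all genes 0.04), where Cycs, Ndufaf4, Ndufs5, and Uqcrq were over 2-fold higher against 12% of all genes and Cox6b1, Cox6b2, Ndufb5, Uqcr11, and Uqcrh lower against 16.2%. The change from D0 to D2 was lower in KD than in Ctrl cells for 79 of 89 members (88.8%), compared with 50.5% of all genes. The members' median difference was -0.56. For 13 members (14.6%) the change was lower by more than 1 log2 unit, compared with 7.58% of all genes.

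At D0 KD and Ctrl cells had similar levels and at D2 most members were lower in KD cells. The D0 median log2 ratio of KD to Ctrl was 0.03 (all genes -0.01), with Cox6b2 over 2-fold higher (5.5% of all genes) and Cox6a2 and Ndufaf3 lower (11%). At D2 it was -0.55 (quartiles -0.79 to -0.31, all genes -0.06), and the counting interval lay below 0 for 76 members and above 0 for 0. Atp5g3, Cox5b, Cox6a2, Cox6b1, Ndufa1, Ndufa2, Ndufa4, Uqcr11, Uqcrb, and Uqcrh were over 2-fold lower, 10 of 89 (11.2%) where 10.5% of all genes were, and 0 were higher, where 4.58% were. The count of members over 2-fold lower was thus near the background, and the group differed from other genes by its median. Between the 2 sets of control cells at D2 the members' median was -0.39 (all genes -0.14). Under other processing choices the KD over Ctrl median ranged from -0.578 to -0.386, and that between the control sets from -0.436 to -0.164. The adipocyte marker sum at D2 was 141 RPKM in KD against 2422 in Ctrl cells, with 6 of 6 markers over 2-fold lower. Of 5 preadipocyte markers, 3 were over 2-fold lower and 1 higher in KD cells at D2, with Pdgfra at 0.354 against 4.98 RPKM, Ly6a at 1.91 against 11.7, and Dlk1 at 27.9 against 3.51. Genes under 1000 bases that are not members had a median of -0.16 here, and the members of that length -0.61.

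Complex IV had the lowest median in KD cells at D2, at -0.78, followed by III at -0.63, V at -0.59, I at -0.51, and II at -0.38, with the complex I assembly factors at -0.19. In complex III only Cyc1, Uqcrc1, Uqcrc2, and Uqcrfs1, given below, are without near-identical copies. The order of the complexes was not computed without the members that have copies. Cox4i1 was at 178 and 338 RPKM in Ctrl cells and 227 and 191 in KD cells at D0 and D2. Cox5b was at 31.7, 58.2, 33.7, and 28.2 in the same order. Cox6b1, which faces the intermembrane space, had a ratio of -1.54 (-1.76 to -1.32) at D2, and Uqcrh, the hinge protein of complex III, -1.51 (-1.78 to -1.25).

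Core and accessory subunits of complex I had similar medians of KD over Ctrl at D2, at -0.52 and -0.50. In complex V, Atp5a1, Atp5b, Atp5c1, Atp5d, and Atp5e had a median of -0.59 and the 12 others -0.60. Atp5a1 was at 324 RPKM in Ctrl D2 and at 172 in KD D2. Cyc1 was at 71.2, 118, 78.7, and 82.2 RPKM in Ctrl D0, Ctrl D2, KD D0, and KD D2, with a D2 ratio of -0.53 (-0.61 to -0.44). Uqcrfs1 had -0.63, Uqcrc1 -0.09, and Uqcrc2 -0.26. For Atp5b the values were 386, 559.8, 408, and 415 RPKM in those libraries, a D2 ratio of -0.43 (-0.46 to -0.40). Sdha was at -0.19 (-0.26 to -0.12), Ndufs1 at -0.46 (-0.58 to -0.34), and Ndufv1 at -0.37 (-0.47 to -0.28). Cycs, unlike at K36M D7, was not distinguishable from control within counting error, at -0.12 (-0.57 to 0.32), and its KD D2 over D0 ratio was 1.27 (0.66 to 1.91). Ndufaf2, Atp5g2, and Ndufv2 were the highest, at 0.03, -0.06, and -0.06.

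**Figure D4:**
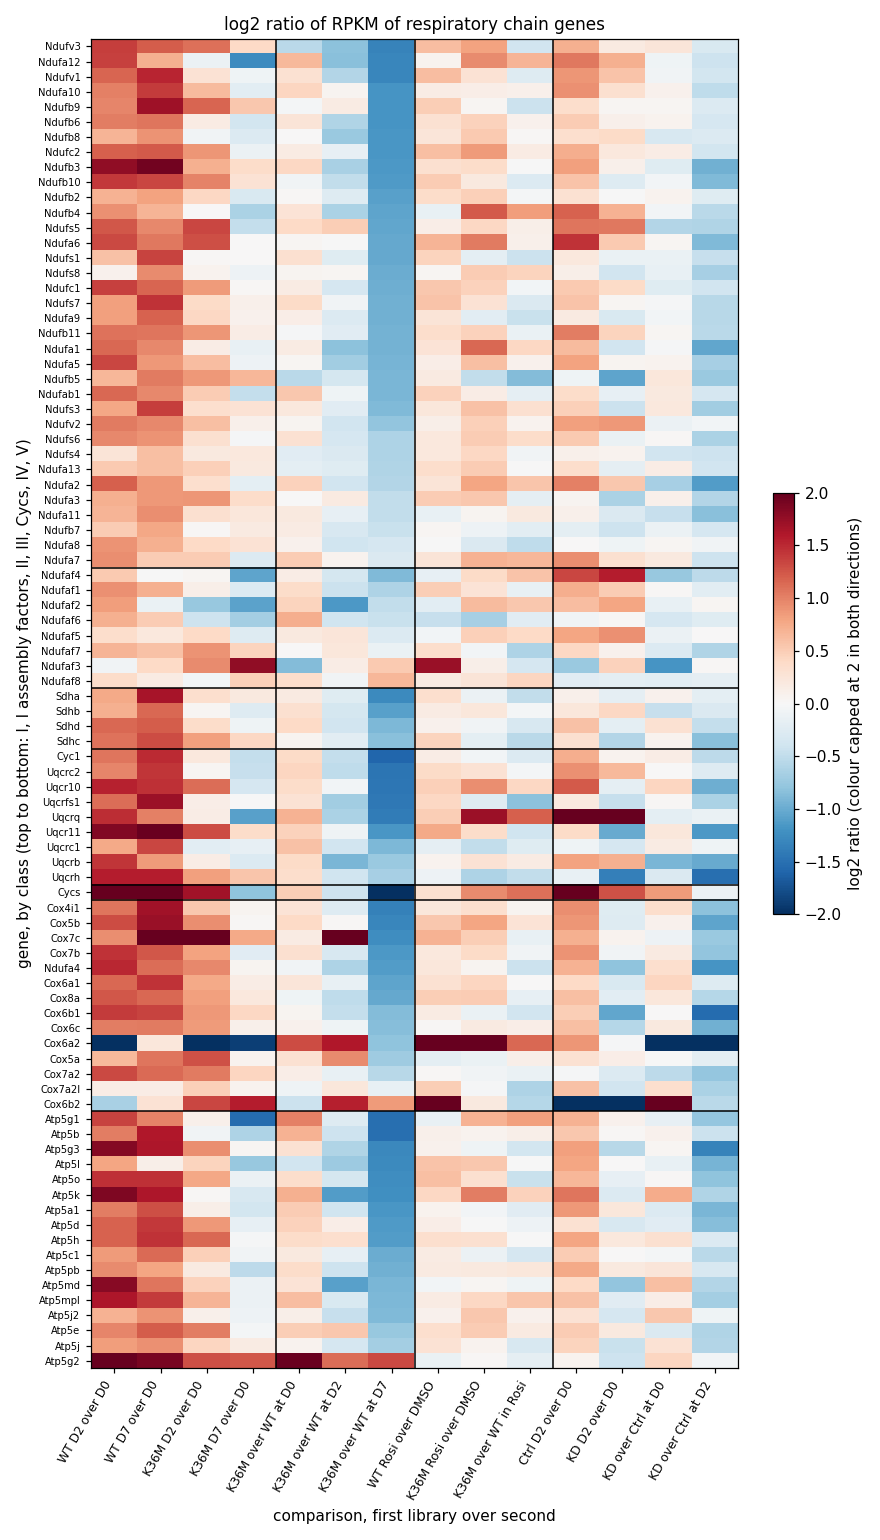
Rows are members grouped by complex and ordered by K36M over WT at D7, columns are comparisons, and color is the log2 ratio of RPKM (red higher and blue lower in the first library, capped at 2 in both directions). The WT D2 and D7 columns are red and the K36M over WT at D7 column blue through nearly all complexes, whereas Cox6a2, Cox6b2, and Atp5g2 differ from their neighbors.

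Isoforms of the same subunit had different patterns. Cox4i1 was the expressed form of subunit 4, and Cox4i2, the form known from lung, stayed at or below 1.58 RPKM. Cox6a1, the general form of subunit 6a, was at 131, 290.1, and 357 RPKM in WT cells at D0, D2, and D7, whereas Cox6a2, the heart and muscle form, was at 10.0, 1.91, and 11.7. Cox6a2 in WT cells was thus low only at D2, whereas in K36M cells it was below D0 at both later days, going from 24.8 to 5.81 and 6.71, and went from 1.05 to 10.2 RPKM in WT and from 1.93 to 22.7 in K36M cells with Rosi. In the knockdown experiment it was at 0.691, 1.28, 0.0871, and 0.0859 RPKM in Ctrl D0, Ctrl D2, KD D0, and KD D2. The KD values rest on 1 read each, with KD over Ctrl ratios of -2.99 (-8.44 to -0.14) at D0 and -3.90 (-9.28 to -1.22) at D2. The sum of muscle markers was highest in K36M DMSO and K36M Rosi, at 71.5 and 64.8 RPKM, where Cox6a2 was at 1.93 and 22.7. Acta1 made up 67.5 and 62.8 RPKM of these sums, and Myod1, Myog, Ckm, Myh1, and Myh4 stayed at or below 0.223 RPKM in all libraries.

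Cox6b1 was the main form of subunit 6b, at 55.7, 146, and 142 RPKM in WT cells, and Cox6b2, known as the testis form, was at 4.26, 2.73, and 5.21. In K36M cells Cox6b2 was at 3.17, 7.96, and 9.41, opposite in direction to Cox6b1 against WT at D7 (0.85 and -0.87). In the ligand experiment Cox6b2 was at 2.79 and 12.98 RPKM in WT and 7.66 and 8.74 in K36M cells. Its KD values were 12.6 at D0 and 0.368 at D2, against 2.53 and 0.538 in Ctrl cells. Cox6b2 thus varied within every experiment, and its KD D2 value rests on 3 reads, with a D2 ratio of KD to Ctrl of -0.55 (-3.23 to 1.82).

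In the pairs of subunits 7b and 8 and of Ndufa4, 1 form made up nearly all of the level, but in that of subunit 7a both were expressed. Cox7a2 and Cox7a2l were at 32.2 and 29.7 RPKM in WT D0 and at 70.3 and 32.8 in WT D7. Cox7a2, the widely expressed form of subunit 7a, was at 1.13 for WT D7 over D0 and -0.56 for K36M over WT at D7, and Cox7a2l, which takes part in joining complexes into supercomplexes, at 0.15 and -0.15. Cox7b was at 1.24 and -1.15, while Cox7b2 never exceeded 0.147 RPKM. Cox8a was at 1.15 and -1.03. Ndufa4 was at 1.11 and -1.12, with KD over Ctrl at D2 of -1.18 (-1.32 to -1.04), and Ndufa4l2, its hypoxia-inducible relative, never exceeded 2.89 RPKM. Atp5g1, Atp5g2, and Atp5g3 encode the same mature rotor subunit c. Only Atp5g3 was without a near-identical copy, at 111, 399, and 342 RPKM in WT, 137, 262, and 140.0 in K36M, and 159, 280.3, 163, and 111 in Ctrl D0, Ctrl D2, KD D0, and KD D2. Atp5g3 was thus highest at D2 in WT and Ctrl cells and lowest, of the D2 libraries, in KD cells. Atp5g1 was at 2.50, 6.37, and 4.94 RPKM in WT and 5.004, 5.35, and 1.73 in K36M cells.

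Other nuclear genes of mitochondria shared the sign of the members' median, with a smaller size, in WT D2 over D0, K36M over WT at D7, and KD over Ctrl at D2, but not in every comparison. The 35 assembly factors and chaperones outside the member list had a median log2 ratio of 0.49 for WT D2 over D0, with 6 of 35 over 2-fold higher and 0 lower (all genes 8.92% and 16.4%). For K36M over WT at D7 they had -0.36, with 0 higher and 4 lower (all genes 10% and 7.17%), and for KD over Ctrl at D2 -0.19, with 1 higher and 1 lower (all genes 4.58% and 10.5%). The 18 genes taken as markers of mitochondrial mass, which serve import, folding, and membrane shape, had 0.62, -0.79, and -0.30 in these comparisons, with 3 higher in the first, 3 lower in the second, and 0 lower in the last. Their medians went the other way from the members' in K36M D2 over D0, at -0.15, and in WT Rosi over DMSO, at -0.04. In K36M D7 over D0 their median was lower than the members', at -0.65. There 4 of 18 were over 2-fold lower, where 6.99% of all genes were. Of 21 regulators of respiratory gene transcription, 17 had a mean RPKM of at least 1, and their medians were -0.17, 0.17, and 0 to 2 decimals. Of these 17, 3 were over 2-fold higher and 2 lower in WT cells at D2, where 8.92% and 16.4% of all genes were. With 17 genes these shares cannot be compared closely. Ppargc1b, a coactivator of respiratory genes, was at 0.844, 9.13, and 10.4 RPKM in WT cells at D0, D2, and D7 and at 2.26, 5.54, and 2.40 in K36M cells. In the knockdown experiment it was at 0.360, 6.51, 0.863, and 1.24 in Ctrl D0, Ctrl D2, KD D0, and KD D2, and was named after its values were seen.

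**Figure D5:**
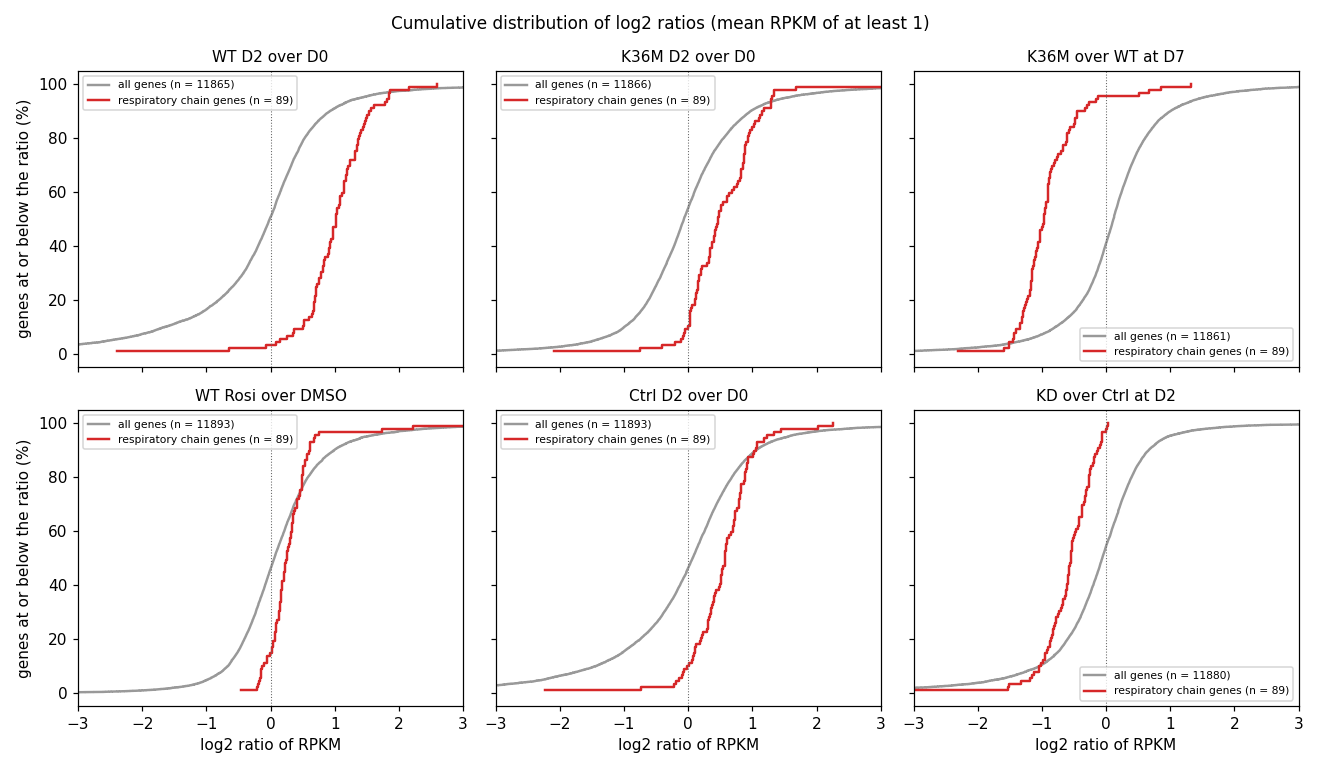
Each panel gives, on the y axis, the percentage of genes at or below the log2 ratio on the x axis, for all genes with a mean RPKM of at least 1 and above 0 in both libraries (grey) and for the 89 members (red). The red curve is to the right of the grey one for WT D2 over D0 and Ctrl D2 over D0, less so for K36M D2 over D0 and WT Rosi over DMSO, and to the left of it for K36M over WT at D7 and KD over Ctrl at D2.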

How the data were processed

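RNA-Seq libraries of immortalized brown preadipocytes were used, 14 in all with 1 per condition. mRNA was purified with Dynabeads, and libraries were made with NEBNext Ultra II and sequenced on an Illumina instrument. RPKM, reads scaled by transcript length and library total, was the unit of the files the authors deposited, which list 29082 RefSeq transcripts each. The submitters' processing notes name CASAVA (1.8.2), SICER, and the build mm9. The mapping and counting programs for RNA-Seq, and filters, are not given in the sources used here. The ChIP-Seq samples were not analysed here, and 1 gene named by the rule below is not reported here.

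A symbol from the RefSeq table (GRCm38.p6) was matched to 28436 transcripts (97.8%), and where a gene had several transcripts, as 7 members did, the one with the highest mean RPKM was taken. The members and gene lists were chosen with earlier results of these data known. Read numbers were recovered from the steps of the RPKM values, for 92 of 93 members as whole reads at a tolerance of 1e-05, and recovered library totals deviated from whole numbers by at most 2.08e-05. With 12213559 to 24365867 mapped reads, depth limited precision only for members with few reads, and intervals cover counting error only. Recovery and calls were tested on simulated data. Samples were grouped by the labels, and libraries of the same experiment were compared, apart from Ctrl over WT cells, which shows how controls of separate experiments differ. Without replicates no test was made. No pseudocount was used, and genes with a mean RPKM of at least 1 were compared and counted when over 2-fold apart.

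Named were fixed core subunits and isoform groups, the 3 highest and 3 lowest members with a mean RPKM of at least 5 in a comparison, and members over 2-fold apart where at most 10 were. Alternatives were pseudocounts of 0.1 and 1, no filter or a mean RPKM of at least 10, rescaling to the median of all genes, summed transcripts, subunits only, and a threshold of 1.5-fold. Leaving out members with near-identical copies, found with minimap2 (2.31), and rescaling to other genes under 1000 bases were chosen after the data were seen. Python (3.11.15), numpy (2.4.6), pandas (2.3.3), scipy (1.17.1), and matplotlib (3.10.9) were used.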

Additional observations from a re-analysis of the deposited data

Results flagged for a closer look

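Some members changed by over 1.5-fold in opposite directions in perturbed and control cells over the same days. Each response comes from 1 library per condition, and the differences were not tested. From D0 to D7, 6 of the 89 members did so between K36M and WT cells, where 3.82% of all genes did. Cycs, cytochrome c, had a log2 response of -0.80 in K36M and 2.00 in WT cells, a difference of -2.81. Atp5b, the catalytic subunit of the ATP synthase, had -0.61 and 1.6 (difference -2.21), and Atp5g1, a source of its rotor subunit c with near-identical copies, -1.53 and 0.98 (difference -2.52). Uqcrq of complex III had -1.08 and 1.01 (difference -2.10). The complex I accessory subunits Ndufa12 and Ndufb4 had -1.26 and 0.70 (difference -1.96) and -0.64 and 0.68 (difference -1.32).

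Over the other steps the counts were near or below the share of all genes, so they do not set the members apart. From D0 to D2 in K36M against WT cells, Cox6b2 differed by 1.97 (1.33 and -0.64) and Ndufaf2 by -1.6 (-0.76 and 0.84). These were 2 of 89 members, where 2.53% of all genes moved in opposite directions. From D2 to D7, Cox7c differed by -3.53 (-2.30 and 1.23) and Ndufb9 by -1.35 (-0.63 and 0.72), again 2 of 89, with 1.93% of all genes. Cox7c was at 26.7 RPKM in WT D0 and at its highest, 248 RPKM, in K36M D2, and has 5 near-identical copies. In the knockdown experiment Ndufa4 differed by -1.51 from D0 to D2 (-0.81 in KD and 0.70 in Ctrl cells), 1 of 89, with 1.96% of all genes. With Rosi 0 members did so, where 1.49% of all genes did.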

How the results depend on the processing

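Each median was recomputed under 9 alternatives, and each count also at 1.5-fold, with 2 of them (leaving out members with near-identical copies, and rescaling to other genes under 1000 bases) chosen after seeing the data. The members' median kept its sign wherever it was over 0.1 in size, with ranges of 0.82 to 1.08 for WT D2 over D0, 1.07 to 1.16 for WT D7 over D0, -1.08 to -0.92 for K36M over WT at D7, and -0.58 to -0.39 for KD over Ctrl at D2. The medians of WT D7 over D2, K36M over WT in DMSO and in Rosi, KD D2 over D0, and KD over Ctrl at D0 were near 0 and changed sign under at least 1 rescaling or choice of members. Counts past the threshold moved more. Among the 54 members without copies, 23 (of 47) were over 2-fold higher in WT D2 over D0, 31 (of 53) in WT D7 over D0, 7 (of 14) in K36M D2 over D0, and 3 (of 11) in Ctrl D2 over D0, and 5 (of 15) were lower in K36M D7 over D2, 22 (of 41) in K36M over WT at D7, 6 (of 10) in KD over Ctrl at D2, and 4 (of 10) in Ctrl over WT at D2. These counts are lower in part because fewer members were counted. With the rescaling to other genes under 1000 bases, 27 were higher in WT D2 over D0 and 6 in Ctrl D2 over D0, and 5 were lower in KD over Ctrl at D2 and 6 in Ctrl over WT at D2, where rescaling to the median of all genes also gave 6. A pseudocount of 1 left 6 higher in Ctrl D2 over D0. At 1.5-fold, 78 (87.6%, all genes 18.1%) were higher in WT D2 over D0, 39 (43.8%, all genes 19%) in K36M D2 over D0, and 41 (46.1%, all genes 23.6%) in Ctrl D2 over D0, and 40 (44.9%, all genes 15.3%) were lower in K36M D7 over D2, 73 (82%, all genes 13.6%) in K36M over WT at D7, 39 (43.8%, all genes 20.4%) in KD over Ctrl at D2, and 30 (33.7%, all genes 16.6%) in Ctrl over WT at D2. Of the ratios of single named members, 6 moved by more than counting error, all with a pseudocount and all in Atp5g2, Cycs, Cox6a2, or Cox6b2, which have few reads in some libraries. No paired analysis was possible because each condition has 1 library.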

Other observations

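Citrate synthase and 2 other genes of the mitochondrial mass list, chosen after their values were seen, add to the picture. Cs, the enzyme that opens the citric acid cycle, was at 67.2, 154, and 283 RPKM in WT cells at D0, D2, and D7 and at 90.8, 126, and 87.2 in K36M cells. Timm23, a channel of protein import, was at 1.27 to 3.11 RPKM in the 6 adipogenesis libraries and at 15.2 to 34.4 in the other 8. Phb, a scaffold of the inner membrane, was at 7.90 to 15.0 RPKM in adipogenesis and 31.7 to 51.9 in the others. Like Atp5g2 and Ndufs5, both therefore had sets of values that do not overlap between experiments, and the cause was not tested.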
